A study of Homo sapiens with 6 samples.

Results

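SLC22A15, TMEM154, SCN4A, NHLH1 and UNC5B, 5 protein-coding genes, were chosen from the 28847 genes of the deposited table by name, for their large rises from low values in the control libraries. The values that chose them are therefore the same ones described here, and the difference of these 5 genes between the groups is given as a description, with no test. Messenger RNA was sequenced from 3 libraries labelled THP_1_RBP4, cells given recombinant human RBP4 (the plasma carrier of retinol), and from 3 control libraries labelled THP_1, the same line alone. All 6 libraries carry the label THP-1, a human monocytic leukaemia line, and the series presents the treated cells as an M0 macrophage model. The sources used here give no dose and no time. Nothing says that the 3 libraries of a group came from separate cultures, so the p-values for other genes measure only the spread between these libraries, which may be technical.

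Each of the 5 proteins sits in a different branch of cell biology. SLC22A15 belongs to the SLC22 family of membrane carriers for organic ions and has been reported to carry zwitterions such as ergothioneine. TMEM154 is a membrane protein whose role in human cells is little known; in sheep, variants of the gene are linked to susceptibility to ovine lentivirus. SCN4A encodes the pore-forming subunit of the voltage-gated sodium channel of skeletal muscle, which carries the upstroke of the muscle action potential. NHLH1 is a basic helix-loop-helix (bHLH) transcription factor of developing neurons that pairs with E proteins and binds the E-box. UNC5B is a receptor for netrins that guides axons and blood vessels, can trigger cell death when no ligand is bound, and is a known target of p53.

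RefSeq promoters (build GRCh38.p14) were at hand for 3 of the 5 genes, TMEM154, NHLH1 and SLC22A15. The bases of these promoters before the annotated gene start are shown. The runs differ in length, with 82 bases for TMEM154, 246 for NHLH1 and 235 for SLC22A15. Capitals mark matches on either strand to the CARE core TGATGNAA (bound by ATF4 with C/EBP partners), the CCAAT box CCAAT (bound by NF-Y) and the E-box CANNTG (bound by bHLH factors). The first run is chr4:152680166-152680247 on the minus strand, the second a site of 30 bases at chr4:152680061-152680090 on the minus strand, the third chr1:160366821-160367066 on the plus strand and the last chr1:115976263-115976497 on the plus strand.
TMEM154 upstream: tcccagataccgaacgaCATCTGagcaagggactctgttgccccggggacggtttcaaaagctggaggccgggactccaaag
TMEM154 CARE site: ctcctgcagaaTTACATCActtcctaaaaa
NHLH1 upstream: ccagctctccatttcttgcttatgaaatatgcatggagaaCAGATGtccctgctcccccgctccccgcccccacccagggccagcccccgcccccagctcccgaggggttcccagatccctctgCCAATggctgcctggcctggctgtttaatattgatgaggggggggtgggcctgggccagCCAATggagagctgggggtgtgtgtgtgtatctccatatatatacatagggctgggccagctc
SLC22A15 upstream: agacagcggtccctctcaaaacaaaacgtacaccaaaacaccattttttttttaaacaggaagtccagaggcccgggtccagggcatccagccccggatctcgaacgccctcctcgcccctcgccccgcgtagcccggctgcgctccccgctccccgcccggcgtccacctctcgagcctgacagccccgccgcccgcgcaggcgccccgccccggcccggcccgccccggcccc

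The 3 promoters differed in the motifs found and in base composition. In windows of 300 bases (250 before and 50 after the RefSeq start), the CARE core was found in that of TMEM154 alone, on the opposite strand, beginning 82 bases before the RefSeq start and inside the first exon of the longest coding transcript in GENCODE 29. It was present in 3.62% of all 35116 RefSeq promoters. NHLH1 had the CCAAT box at 2 places, 126 and 67 bases before the start, a motif found in 34.6% of all promoters. The E-box, found in 68.7% of all promoters, was present in NHLH1 (2 matches, of which the one 5 bases before the RefSeq start reaches into the annotated gene and is not printed) and in TMEM154 (1 match). None of the 3 windows held the CRE TGACGTCA (1.85% of all promoters), the UPRE TGACGTGG (0.729%), the AP-1 site TGANTCA (7.71%), the GATA site AGATAA (10.3%) or the ERSE (0.0769%), which contains the CCAAT box; all motifs were searched on both strands. SLC22A15 held none of the motifs searched, with a GC content of 73% and 37 CpG dinucleotides, against a median of 58.7% and 14 over all promoters. NHLH1 had 61% GC and 4 CpG, and TMEM154 54% GC and 12 CpG. A match describes letters and does not show that a factor binds there.

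Sequencing depth was even. The libraries held 15994483 to 16420517 reads in the RBP4 group and 15202000 to 16149118 in the control group, recovered from the deposited values, which are reads divided by 1 size factor per library (normalized reads). A gene with 0 reads could still stand at up to 3 reads, which equalled 0.183 to 0.188 CPM (reads scaled to a common library total) in RBP4 libraries and 0.186 to 0.197 CPM in control libraries. Reads of mitochondrial genes also differed with the group, at 7.58% to 7.69% in RBP4 libraries and 5.90% to 6.10% in control libraries, and their part in the results was not tested. The label of a monocytic line was not borne out by its markers. Of 20 monocyte and macrophage markers analysed, 4 reached 10 CPM in all 6 libraries and 12 stayed under 1 CPM in all, whereas 24 of 27 erythroid markers reached 10 CPM. Squamous and epithelial markers (7 analysed of 13) summed to 139 to 146 CPM in RBP4 and 155 to 165 CPM in control libraries, mostly from KRT19, and T, NK and B cell markers (8 of 14) to 10.8 to 11.1 CPM in RBP4 and 9.76 to 13.7 CPM in control libraries. CD14, a monocyte co-receptor, had 0 reads in each RBP4 library and 0.0858 ± 0.0397 CPM in control libraries (SD, n = 3), whereas GATA1, a red cell factor, had 209 ± 1.72 CPM in RBP4 and 195 ± 5.51 CPM in control libraries. The groups are therefore called by their labels only.

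SLC22A15 (ENSG00000163393, chromosome 1, 115976498 to 116070054, plus strand, GRCh38) had the largest ratio of the 5 genes. It stood at 89.9, 80.3 and 85.8 normalized reads in RBP4 libraries 1, 2 and 3, against 4.14, 4.02 and 2.14 in control libraries 1, 2 and 3. In whole reads these were 93, 85 and 90 in RBP4 libraries and 4, 4 and 2 in control libraries, the last of which lies under that limit of 3 reads. All RBP4 libraries lay far above all control libraries, and the lowest RBP4 value was 19.4 times the highest control value. The mean was 85.3 ± 4.84 normalized reads in RBP4 and 3.44 ± 1.12 in control libraries (SD, n = 3 each), a ratio of 24.8. With 268 summed reads in RBP4 and 10 in control libraries, the exact (Clopper-Pearson) 95% interval of the ratio of summed reads ran from 13.2 to 52.0, which covers counting error only. The level in control libraries was 0.132 to 0.255 CPM, at the edge of detection.

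TMEM154 (ENSG00000170006, chromosome 4, 152618632 to 152680165, minus strand) showed the least spread among the RBP4 libraries. It had 193, 192 and 186 normalized reads in RBP4 libraries 1, 2 and 3, against 9.31, 9.06 and 12.8 in control libraries 1, 2 and 3. The RBP4 values varied by 2.02% (SD over mean). Their SD of 4.04 reads was below the 14.1 that counting error alone gives, so the small spread describes these 3 libraries only. The groups were far apart, the lowest RBP4 value being 14.5 times the highest control value. The mean was 190 ± 3.85 normalized reads in RBP4 and 10.4 ± 2.12 in control libraries (SD, n = 3 each), a ratio of 18.3 (interval from counting error 12.7 to 27.4). The gene overlaps AC106882.1, an antisense transcript that averaged 0.637 ± 0.552 normalized reads in RBP4 libraries and 0 in each control library.

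SCN4A (ENSG00000007314, chromosome 17, 63938554 to 63972918, minus strand) was the most variable of the 5 in RBP4 libraries. It had 238, 184 and 187 normalized reads in RBP4 libraries 1, 2 and 3, against 16.6, 10.1 and 19.3 in control libraries 1, 2 and 3. RBP4 library 1 stood above the other two, with an SD of 29.2 reads over the group where counting error alone gives 14.6, and control library 2 was the lowest of its group. Even so, the groups did not overlap, the lowest RBP4 value being 9.55 times the highest control value. The mean was 203 ± 30.2 normalized reads in RBP4 and 15.3 ± 4.73 in control libraries (SD, n = 3 each), a ratio of 13.3 (interval from counting error 9.81 to 18.5). The longest coding transcript has 24 exons and 7805 bases, and no gene of the table overlaps it.

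NHLH1 (ENSG00000171786, chromosome 1, 160367067 to 160372848, plus strand) is the shortest of the 5 genes, spanning 5.78 kb in 2 exons. It had 136, 127 and 117 normalized reads in RBP4 libraries 1, 2 and 3, against 20.7, 18.1 and 18.2 in control libraries 1, 2 and 3. The values of each group lay close together and the groups were well apart, the lowest RBP4 value being 5.67 times the highest control value. In reads, the SD was 9.17 in RBP4 and 1.53 in control libraries, below the 11.5 and 4.28 that counting error alone gives. The small spread therefore describes these libraries only. The mean was 127 ± 9.49 normalized reads in RBP4 and 19.0 ± 1.47 in control libraries (SD, n = 3 each). This ratio of 6.68 (interval from counting error 5.03 to 9.02) was the smallest of the 5.

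UNC5B (ENSG00000107731, chromosome 10, 71212570 to 71302864, plus strand) was the most abundant of the 5 and was not near-silent in the control libraries. It had 869, 855 and 930 normalized reads in RBP4 libraries 1, 2 and 3, against 125, 123 and 131 in control libraries 1, 2 and 3. The control level corresponded to 7.55 to 8.03 CPM, well above the limit of detection, and the RBP4 level to 55.2 to 59.9 CPM. The mean was 885 ± 39.7 normalized reads in RBP4 and 126 ± 4.03 in control libraries (SD, n = 3 each), a ratio of 7.01 (interval from counting error 6.28 to 7.84). UNC5B-AS1, on the opposite strand inside the gene, averaged 2.88 ± 2.57 normalized reads in RBP4 and 0.345 ± 0.598 in control libraries. The library kit does not mark strand, so reads of overlapping genes are not separated. The antisense levels of both pairs were small beside those of UNC5B and TMEM154. For the same reason, they cannot show how much antisense RNA adds to either gene.

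**Figure D1:**
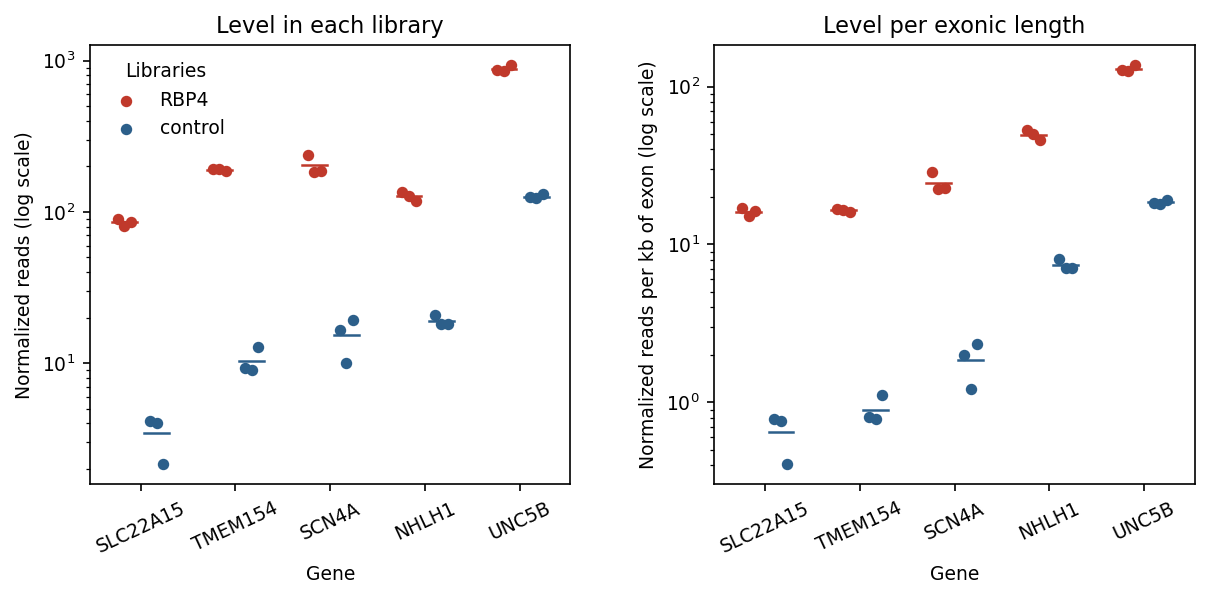
Level of the 5 genes in each of the 3 RBP4 (red) and 3 control (blue) libraries, as normalized reads (left) and normalized reads per kb of exon (right), both on log axes; points are libraries and bars are group means. The groups do not overlap for any of the 5 genes, and UNC5B is the highest in both groups.

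Compared per exonic length, the genes kept the same order in both groups. In RBP4 libraries the level was 129 ± 5.80 normalized reads per kb for UNC5B, 49.6 ± 3.70 for NHLH1, 24.6 ± 3.66 for SCN4A, 16.4 ± 0.332 for TMEM154 and 16.1 ± 0.914 for SLC22A15 (SD, n = 3). In control libraries it was 18.4 ± 0.589 for UNC5B, 7.41 ± 0.573 for NHLH1, 1.86 ± 0.574 for SCN4A, 0.898 ± 0.183 for TMEM154 and 0.649 ± 0.212 for SLC22A15. TMEM154 and SLC22A15 overlapped between libraries in each group, so their order is not resolved, and the other neighbours in the order did not overlap. Among the protein-coding genes of the table, the level per length of SLC22A15 stood at percentile 33.8 in RBP4 and 14.6 in control libraries. UNC5B stood at percentile 66.7 in RBP4 and 36.4 in control libraries, and NHLH1 at 46.8 in RBP4 and 29.8 in control libraries. In bulk RNA, more cells that express a gene and more RNA per cell cannot be told apart.

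All 5 genes passed the filter on low values (at least 10 normalized reads in at least 3 libraries), SLC22A15 through the RBP4 libraries alone and TMEM154 with 1 control library at 10 or above. Of the 15676 genes tested, 50.6% were called in limma's moderated test at a Benjamini-Hochberg adjusted p under 0.05, 24.5% higher and 26.1% lower in RBP4 libraries. Under total-read scaling, 61.7% of the calls were higher in RBP4 libraries, against 48.4% with the authors' size factors. All RBP4 libraries lay above all control libraries for all 5 genes, as their choice implies, and for 27.3% of the genes tested. On the log2(value + 1) scale, which understates the change of low genes, the log2 fold change was 4.32 for SLC22A15, 4.08 for TMEM154, 3.68 for SCN4A, 2.80 for UNC5B and 2.68 for NHLH1. These ranked 2, 3, 4, 20 and 27 from the top among the genes tested. The authors' deposited table gave log2 fold changes of 4.63, 4.20, 3.74, 2.81 and 2.74 for the same genes.

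Large differences from a low control level were more numerous than the mirror case. Of 2171 tested genes averaging under 20 normalized reads in control libraries, 86 were at least 4-fold and 17 at least 8-fold higher in RBP4 libraries. In the other direction, of 1783 tested genes averaging under 20 in RBP4 libraries, 14 were at least 4-fold and 2 at least 8-fold lower in RBP4 libraries. These counts are descriptive, since a gene whose low group stays under 10 normalized reads could pass the filter only through the other group.

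**Figure D2:**
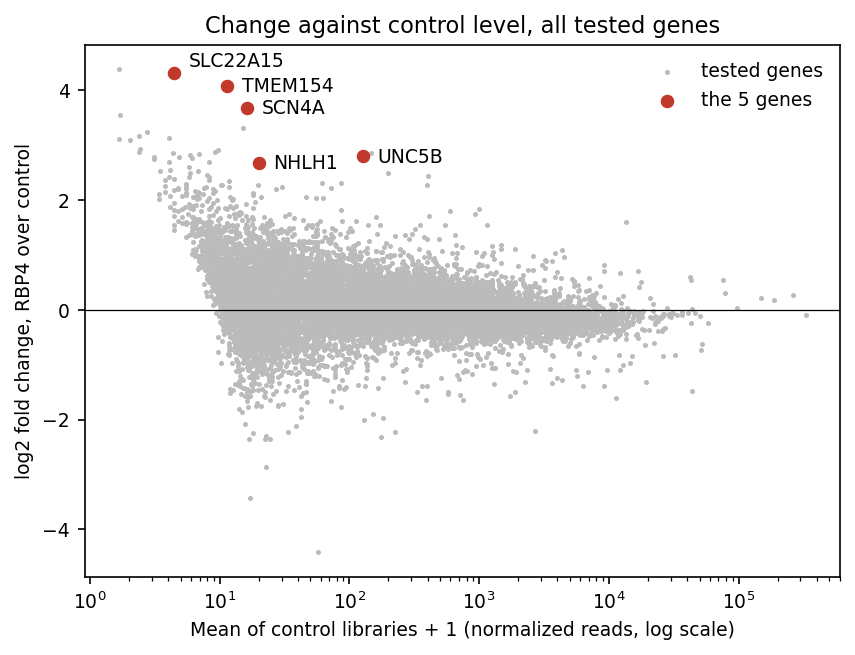
Log2 fold change (RBP4 over control, log2(value + 1) scale) of the 15676 tested genes against their mean in control libraries plus 1 (log axis), with the 5 genes in red. SLC22A15, TMEM154 and SCN4A lie at the upper edge among genes of low control level, and UNC5B lies furthest to the right of the 5.

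Likeness was measured as the Euclidean distance of log2(value + 1) over the 6 libraries. A small distance means similar normalized reads in every library, with no correction for gene length. The distance uses the values that chose the 5 genes, so genes with similar rises from low values lie near them by construction. UNC5B was nearest to CHAC1, an enzyme that degrades glutathione and a target of the integrated stress response, at a distance of 0.611. CHAC1 averaged 1063 ± 51.9 normalized reads in RBP4 and 146 ± 6.62 in control libraries. The next was INHBE, a subunit of the activin family that the same response induces, at 1104 ± 47.9 in RBP4 and 197 ± 24.6 in control libraries (distance 1.26), followed by CLIP2, a microtubule linker, at 1.46. TMEM154 and SCN4A were each other's nearest gene among all 28847, at 1.00, though per kb they did not overlap in either group. They lay closest in RBP4 libraries 2 and 3 and furthest apart in control library 1, where TMEM154 had 9.31 and SCN4A 16.6 normalized reads. IL20RB, a receptor subunit for cytokines of the IL-20 group, was among the 3 nearest genes of TMEM154, SCN4A and NHLH1, and averaged 145 ± 15.6 normalized reads in RBP4 and 14.1 ± 4.84 in control libraries. NHLH1 was nearest to SLCO2B1, a carrier of organic anions (0.887), and also near CSF3R, the receptor of granulocyte colony-stimulating factor (1.11). SLC22A15 had no close neighbour, the nearest being QRICH2 (2.05), GLI1, a transcription factor of Hedgehog signalling (2.06), and RTL6 (2.09).

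The relatives of SLC22A15 changed in both directions. Over all genes tested, 24.5% were called higher and 26.1% lower in RBP4 libraries, the shares beside which the counts of each list stand. Of 22 other SLC22 genes listed, 11 were analysed and 6 passed the filter; 3 rose, 2 fell and 1 missed the threshold (their median log2 fold change 0.38, against -0.0021 over all genes tested; 4 rose and 2 fell under total-read scaling). SLC22A31 averaged 110 ± 9.02 normalized reads in RBP4 and 59.0 ± 5.55 in control libraries (log2 fold change 0.89, SE 0.16, limma adjusted p = 2.84e-06). SLC22A18 rose 1.56-fold (adjusted p = 2.73e-08), and SLC22A17, the remaining raised gene, had 24.2 ± 3.70 in RBP4 and 10.7 ± 1.86 in control libraries (adjusted p = 0.00447). SLC22A4, the ergothioneine carrier, fell to 190 ± 21.7 in RBP4 libraries, against 276 ± 18.2 in control libraries (log2 fold change -0.54, adjusted p = 4.62e-06), and the carnitine carrier SLC22A5 fell by 0.27 on the log2 scale (adjusted p = 5.92e-05). The highest ratio among the 6 was the 2.26 of SLC22A17, beside 24.8 for SLC22A15, which was chosen for its rise.

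Among the other voltage-gated sodium channels, 10 of 14 listed genes were analysed and 3 passed the filter. SCN2A, a channel of central neurons, rose, with 118 ± 9.88 normalized reads in RBP4 and 75.5 ± 17.6 in control libraries (log2 fold change 0.66, SE 0.15, limma adjusted p = 0.000250). SCN9A, a channel of sensory neurons, missed the threshold and passed it under total-read scaling (log2 fold change 0.21). Over the 3 tested genes the median was 0.14 on the log2 scale. SCN9A had 343 ± 13.8 normalized reads in RBP4 and 312 ± 12.8 in control libraries. SCN8A was too low to be tested, with 9.67, 11.3 and 8.58 normalized reads in RBP4 libraries against 3.10, 3.02 and 1.07 in control libraries. SCN4B, an accessory subunit, had a mean under 2 normalized reads in each group.

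Genes that act with SCN4A in the excitation of muscle rose more often than they fell, though the list was not tested as a set. Of all genes tested, 24.5% were called higher and 26.1% lower in RBP4 libraries. Of 19 listed, 13 were analysed, 5 of them under 1 CPM in all 6 libraries, and 8 were tested; 5 rose, 1 fell and 2 missed the threshold, at a median log2 fold change of 0.45. KCNE3, an accessory subunit of potassium channels, had 112, 124 and 115 normalized reads in RBP4 libraries against 61.1, 41.3 and 56.8 in control libraries (log2 fold change 1.15, SE 0.16, limma adjusted p = 1.65e-08). ATP2A1, the calcium pump of fast muscle, rose 1.51-fold (adjusted p = 9.00e-06) and RYR1, the calcium release channel, 1.23-fold (adjusted p = 1.13e-05). TRDN, which encodes triadin, fell by 0.71 on the log2 scale (adjusted p = 0.0201), a call lost without control library 1 (log2 fold change -0.59) and with DESeq2. The 4 muscle markers analysed of 15 summed to 20.1 to 23.7 CPM in RBP4 and 23.2 to 25.8 CPM in control libraries. DES, the filament protein desmin, made up most of it and fell, with 279 ± 29.2 normalized reads in RBP4 and 325 ± 23.5 in control libraries (adjusted p = 0.0280), a call lost with total-read scaling, with DESeq2, and without RBP4 library 1 (log2 fold change -0.14) or control library 1 (-0.17). MYH3, the embryonic myosin, did not pass, and ACTA1 and CKM stayed under 1 CPM in all 6 libraries.

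For NHLH1, the list held the E proteins it pairs with, LIM-only and LDB factors, ID proteins, and bHLH relatives such as TAL1, TAL2 and LYL1. Of 17 listed genes, 14 were analysed and 12 tested, of which 5 rose, 3 fell and 4 missed the threshold (median log2 fold change 0.012). Under total-read scaling, 6 rose and 1 fell. Those that rose were TAL1, TAL2, LYL1, TCF4 and LMO4, and those that fell were TCF12, LDB1 and ID1. The calls of LYL1, TCF4, LDB1 and ID1 were each lost in some alternative runs. LMO4, a LIM-only factor, had 844 ± 41.2 normalized reads in RBP4 and 465 ± 8.62 in control libraries (log2 fold change 0.86, SE 0.060, limma adjusted p = 3.41e-20). TAL1, the bHLH factor of blood stem cells and red cells, rose 1.18-fold (adjusted p = 5.22e-08). Its small relative TAL2 had 13.5, 15.1 and 12.4 normalized reads in RBP4 libraries against 6.21, 4.02 and 1.07 in control libraries (adjusted p = 0.00230), and was named after its values were seen. TCF12, an E protein, fell by 0.23 on the log2 scale (adjusted p = 4.85e-07). The E protein TCF3 had 3372 normalized reads in RBP4 and 3478 in control libraries and did not pass. LMO3, another LIM-only factor, was too low to be tested, at 0.492 ± 0.277 CPM in RBP4 and 0.644 ± 0.438 CPM in control libraries.

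Other bHLH factors of neural development changed in both directions. Of 27 listed, 15 were analysed and 6 tested, of which HEYL rose and HES1 and HES4 fell; the median log2 fold change was 0.015 and the mean -0.022, which differ in sign. HEYL, a Notch target, had 199 ± 10.6 normalized reads in RBP4 and 122 ± 13.9 in control libraries (log2 fold change 0.70, limma adjusted p = 6.86e-07). HES1, another Notch target, had 342 ± 36.4 in RBP4 and 473 ± 15.6 in control libraries (log2 fold change -0.47, adjusted p = 2.84e-07), and HES4 fell by 0.55 on the log2 scale (adjusted p = 2.61e-07). Of the 15 genes, 9 stayed under 1 CPM in all 6 libraries. The 7 neuron markers analysed of 15 summed to 17.2 to 21.3 CPM in RBP4 and 17.5 to 19.6 CPM in control libraries. Most of that sum came from NEFH, a neurofilament chain, which did not pass, at 12.6 ± 0.685 CPM in RBP4 and 10.5 ± 0.692 CPM in control libraries. SYP, a synaptic vesicle protein, fell, at 5.62 ± 1.18 CPM in RBP4 and 7.24 ± 0.674 CPM in control libraries (limma adjusted p = 0.00936), a call lost with DESeq2, without RBP4 library 2 (log2 fold change -0.29) and without control library 2 (-0.38). The other 5, among them RBFOX3, stayed under 1 CPM in all 6 libraries.

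Around UNC5B, the netrin receptors and ligands moved both ways. Of 21 listed, 14 were analysed and 9 tested; 2 rose, 3 fell and 4 missed the threshold (their median log2 fold change -0.17, differing in sign from the mean of 0.025; 2 rose and 2 fell under total-read scaling). NEO1, the receptor neogenin, had 70.6, 68.0 and 75.4 normalized reads in RBP4 libraries against 14.5, 31.2 and 27.8 in control libraries. Its groups did not overlap, and the ratio of 2.91 passed (log2 fold change 1.57, SE 0.23, limma adjusted p = 3.62e-08). MAGED1, which binds UNC5 receptors, rose by a log2 fold change of 0.80 (adjusted p = 0.00488), a call lost without control library 1 (0.58). DAPK1, a kinase through which unbound UNC5B signals cell death, had 734 ± 9.87 normalized reads in RBP4 and 1087 ± 54.9 in control libraries (log2 fold change -0.57, SE 0.052, adjusted p = 6.01e-15). NTN1, the ligand netrin-1, had 63.4 ± 3.30 in RBP4 and 93.5 ± 6.89 in control libraries (log2 fold change -0.55, adjusted p = 0.00300). UNC5C, a close relative, fell by 0.38 on the log2 scale (adjusted p = 0.0349); that call was lost with total-read scaling, with edgeR, with DESeq2, without the filter, without RBP4 library 1 (-0.21), and without control library 2 (-0.40) or 3 (-0.31). UNC5A averaged under 1 normalized read in each group.

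Other guidance genes and endothelial markers were also measured, since UNC5B acts in both settings. Of 36 listed guidance receptors and ligands, 32 were analysed and 29 tested; 8 rose, 10 fell and 11 missed the threshold (their median log2 fold change 0.038; 8 rose and 9 fell with total-read scaling). SEMA4B, a semaphorin, fell to 606 ± 44.8 normalized reads in RBP4 libraries, against 1262 ± 73.9 in control libraries (log2 fold change -1.06, limma adjusted p = 4.12e-26), and ROBO2, a Slit receptor, fell by 0.67 on the log2 scale (adjusted p = 8.90e-15). SEMA4C fell by 0.54 (adjusted p = 3.04e-22). ROBO3, a receptor of the same family, had 61.7 ± 13.2 in RBP4 and 20.1 ± 3.01 in control libraries (log2 fold change 1.56, adjusted p = 8.35e-08), and was named after its values were seen. The 6 endothelial markers analysed of 12 summed to 6.76 to 7.98 CPM in RBP4 and 6.56 to 8.42 CPM in control libraries. Of 4 tested, 1 rose and 1 fell. ESAM, an adhesion molecule, had 19.1 ± 5.60 normalized reads in RBP4 and 8.31 ± 1.16 in control libraries (adjusted p = 0.0142), a call lost without RBP4 library 2 (log2 fold change 0.86). PECAM1, another, fell to 15.6 ± 4.92 in RBP4 libraries, against 28.3 ± 2.18 in control libraries (adjusted p = 0.0141), a call lost with DESeq2 and without RBP4 library 3 (-0.62).

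Among tested targets of p53, a group to which UNC5B belongs, more rose than fell, though the list was not tested as a set. The shares over all genes tested were 24.5% higher and 26.1% lower in RBP4 libraries. Of 30 other targets listed, 28 were analysed and 24 tested; 12 rose, 4 fell and 8 missed the threshold (their median log2 fold change 0.14; 15 rose and 2 fell with total-read scaling). CDKN1A, the cell cycle inhibitor p21, had 421 ± 24.1 normalized reads in RBP4 and 163 ± 28.5 in control libraries (log2 fold change 1.38, SE 0.098, limma adjusted p = 2.10e-18). SESN2, an inhibitor of mTORC1 that the integrated stress response also induces, rose 2.92-fold (adjusted p = 2.66e-45). GDF15, a secreted stress factor shared by both pathways, rose 1.82-fold (adjusted p = 2.84e-30). The 4 that fell were APAF1, a trigger of caspase activation (log2 fold change -0.36, adjusted p = 1.65e-08), TRIAP1, an inhibitor of cell death (-0.34, adjusted p = 0.000114), MDM2, the p53 ubiquitin ligase (-0.17, adjusted p = 0.00273), and CCNG1, cyclin G1 (-0.12, adjusted p = 0.000231). The calls of MDM2 (-0.10) and CCNG1 (-0.054) were lost under total-read scaling. The highest ratio among the 24 was the 2.92 of SESN2, beside 7.01 for UNC5B, which was chosen for its rise.

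**Figure D3:**
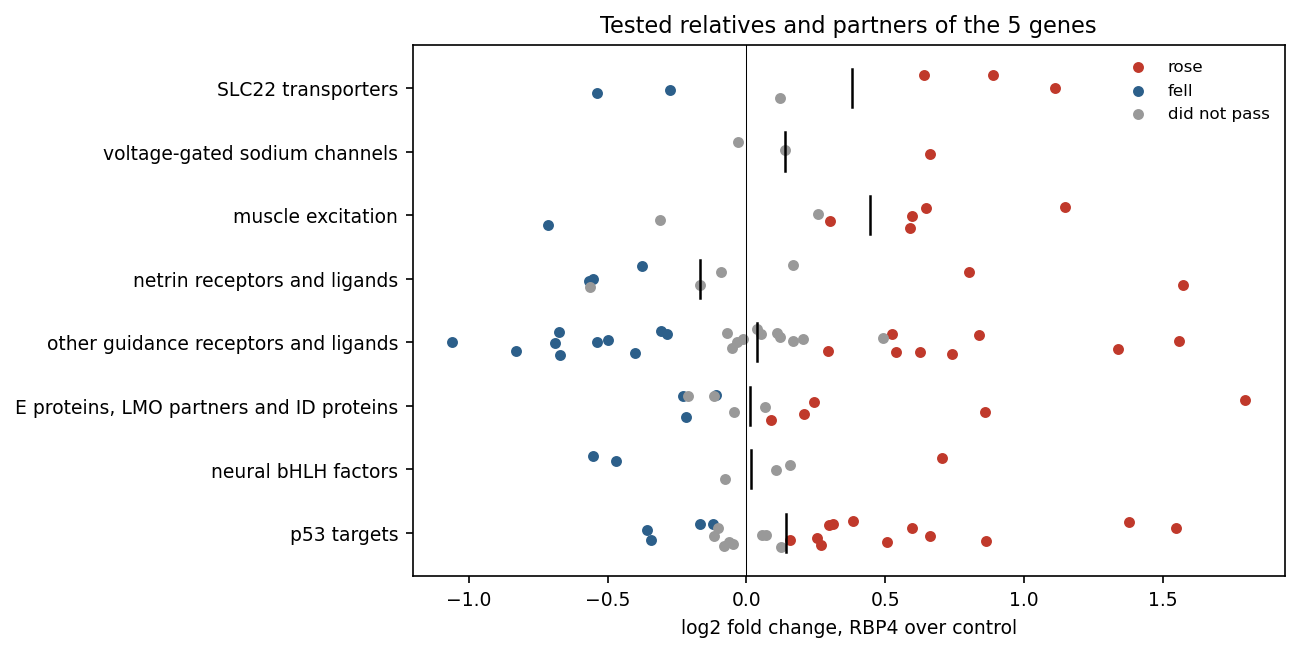
Log2 fold change (RBP4 over control) of each tested gene in 8 lists of relatives and partners; red rose, blue fell and grey did not pass at a limma adjusted p under 0.05, black bars are list medians and vertical scatter is only for display. The listed genes lie between about the change of SEMA4B (-1.06) and that of TAL2 (1.80). All lie below the 5 genes, which were themselves chosen for large rises.

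The 5 genes lie on 4 chromosomes, and none is within 500 kb of another. Of 90 other genes of the table within 500 kb of a member, 49 were tested; 20 rose, 11 fell and 18 missed the threshold, at a median log2 fold change of 0.12; the share called was 63.3%, beside 50.6% of all genes tested. With total-read scaling 25 rose and 7 fell. The largest log2 fold change of these neighbours was 2.37, below that of each of the 5 genes, which were chosen for large rises. Next to SLC22A15, VANGL1, a planar polarity gene 278 kb away, did not pass (log2 fold change 0.13, limma adjusted p = 0.0602; it passed with edgeR and with total-read scaling). Next to TMEM154, FBXW7, a ubiquitin ligase subunit 82.6 kb away, had 410 ± 18.7 normalized reads in RBP4 and 425 ± 2.82 in control libraries (adjusted p = 0.546). TIGD4, 89.2 kb on the other side, rose, with 24.5 ± 1.80 in RBP4 and 10.4 ± 5.86 in control libraries (log2 fold change 1.32, adjusted p = 0.00200).

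The genes nearest to SCN4A were low. CD79B, a B cell receptor subunit 6.20 kb away, averaged 1.90 ± 0.933 normalized reads in RBP4 and 2.04 ± 1.77 in control libraries and was not tested. PRR29, 25.4 kb on the other side, rose, with 23.9 ± 6.53 in RBP4 and 11.4 ± 5.42 in control libraries (limma adjusted p = 0.00904, log2 fold change 1.09); the call was lost with DESeq2, without RBP4 library 2 (0.91) and without control library 1 (0.65). Named after their values were seen, ICAM2, an adhesion molecule 29.7 kb away, rose 1.76-fold, and ERN1, the stress sensor IRE1 of the endoplasmic reticulum 66.2 kb away, rose 1.33-fold (adjusted p = 2.28e-09). ACE, angiotensin-converting enzyme, had the largest change in that window, with 44.3 ± 12.9 in RBP4 and 13.5 ± 7.33 in control libraries (adjusted p = 4.76e-05).

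Around NHLH1, 7 of 13 tested genes were called (5 rose and 2 fell), beside 50.6% of all genes tested. The genes that fell were TAGLN2 (log2 fold change -0.39) and DCAF8 (-0.37), both named after their values were seen. NCSTN, a gamma-secretase subunit 8.12 kb away, had 1407 ± 76.4 normalized reads in RBP4 and 1443 ± 33.1 in control libraries (limma adjusted p = 0.495). VANGL2, a planar polarity gene 27.7 kb on the other side, rose 1.38-fold (log2 fold change 0.46, adjusted p = 1.66e-12). SLAMF6, a leukocyte surface receptor 112 kb away, had 36.7, 44.4 and 42.0 normalized reads in RBP4 libraries against 9.31, 7.04 and 5.35 in control libraries. The groups did not overlap, and its ratio of 5.67 was close to the 6.68 of NHLH1 (log2 fold change 2.37, SE 0.33, adjusted p = 5.04e-09). Named after its values were seen, CD84, of the same receptor family and 168 kb away, rose 1.62-fold (adjusted p = 3.41e-05).

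Beside UNC5B, PCBD1, 324 kb away, had 543 ± 19.9 normalized reads in RBP4 and 552 ± 19.2 in control libraries (limma adjusted p = 0.790). SLC29A3, a nucleoside carrier 16.4 kb on the other side, rose 1.65-fold, with 140 ± 12.4 in RBP4 and 84.8 ± 8.57 in control libraries (adjusted p = 1.24e-05). VSIR, which encodes the checkpoint protein VISTA and lies 445 kb away, had the largest change in that window, with 247, 309 and 251 normalized reads in RBP4 libraries against 80.7, 109 and 72.8 in control libraries (log2 fold change 1.62, SE 0.13, adjusted p = 1.57e-16). Its ratio was 3.08, beside 7.01 for UNC5B, which was chosen for its rise.

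**Figure D4:**
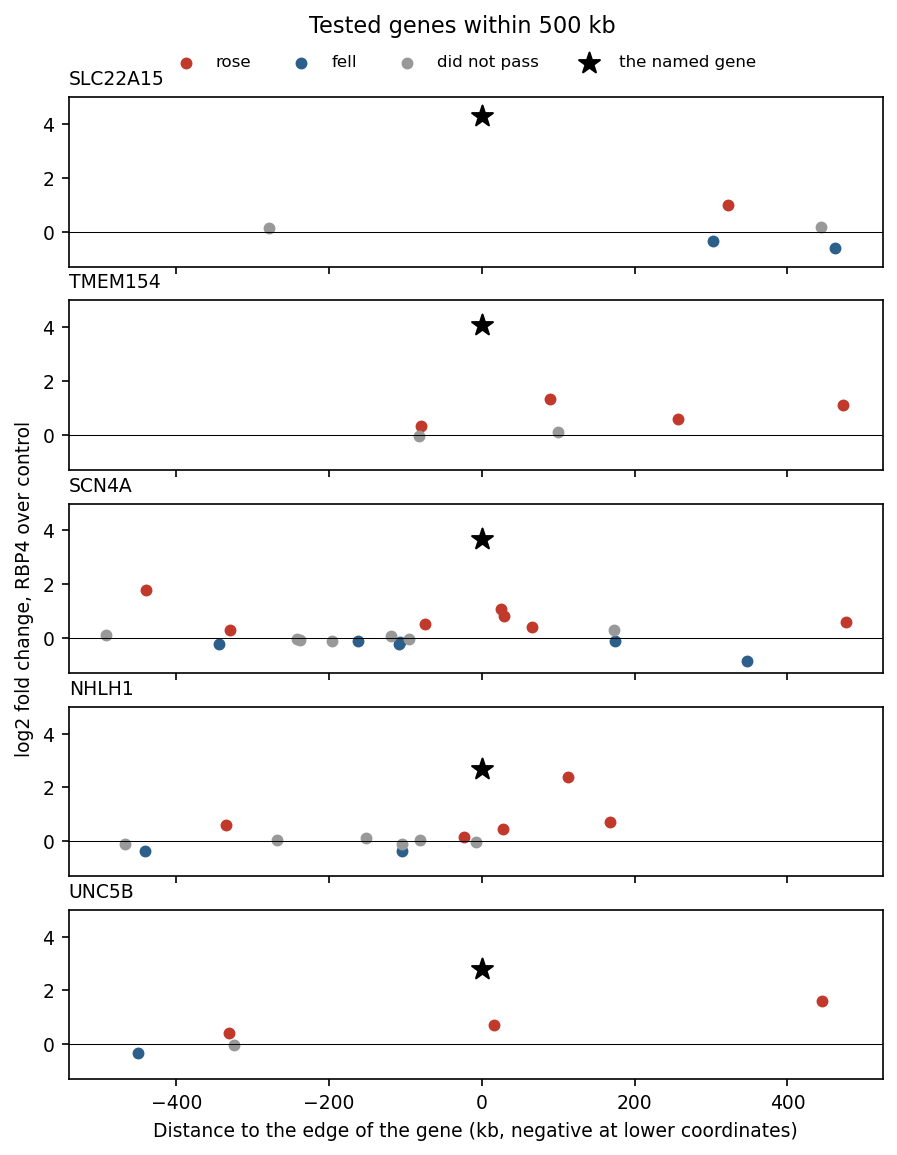
Log2 fold change (RBP4 over control) of tested genes within 500 kb of each of the 5 genes, by distance in kb to the edge of that gene; stars are the 5 genes, red rose, blue fell and grey did not pass at a limma adjusted p under 0.05. Each star, a gene chosen for its large rise, lies above all points of its own panel, most narrowly for NHLH1 (2.68), where SLAMF6 reached 2.37.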

How the data were processed

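The authors deposited 1 table of normalized signal per gene and library (gene reads divided by 1 size factor), group means, and their own log2 fold change, p-value and adjusted p-value per gene, per the file headers; the aligner is not given in the sources used here. In all 6 libraries 100% of values were whole multiples of 1 step within 0.01 reads; the recovered reads served for depth, CPM and alternatives. All 28847 genes had the start and end of GENCODE 29. No per-sample column was unused (0). Poly-T selection and an Illumina kit that does not mark strand were used, per the labels' protocols.

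Limma 3.58.1 (R 4.3.3) was run with trend and robust moderation on log2(value + 1), two-sided, over genes reaching 10 in 3 or more libraries, with Benjamini-Hochberg adjustment over all of them and a threshold of 0.05. Alternatives used edgeR 4.0.16 (TMM) and DESeq2 1.42.0 on recovered reads. The scripts were tested on simulated data. The 5 genes, the 15 lists and the rules were chosen with earlier results of these data known. Named genes were up to 3 called genes per list by smallest p, the nearest protein-coding genes, overlapping genes and the 3 nearest by distance; any other gene, those with the largest change in a window included, was named after its values were seen. Some genes of the lists and windows are counted but not reported by name here.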

Additional observations from a re-analysis of the deposited data

How the results depend on the processing

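The log2 fold changes of the 5 genes stayed positive under each alternative run, as their choice for large rises implies. With a pseudocount of 5 they were 3.43 for SLC22A15, 3.67 for TMEM154 and 2.46 for NHLH1; DESeq2 gave 4.63 for SLC22A15, and total-read scaling gave 2.87 for UNC5B and 16.9 normalized reads per kb for TMEM154 in RBP4 libraries. A pseudocount acts most on low values by construction. Leaving out 1 library gave 4.08 to 4.44 for SLC22A15, 4.00 to 4.23 for TMEM154, 3.42 to 3.86 for SCN4A, 2.63 to 2.74 for NHLH1 and 2.76 to 2.82 for UNC5B. The sodium channel list had 2 calls with total-read scaling and 2 without the filter, against 1, and the window of 1000 kb gave 55 neighbour calls among 97 tested, against 31 of 49. On recovered reads, edgeR called 7820 and DESeq2 6510 genes, against 7934. FBXW7 (0.013), NCSTN (0.030), PCBD1 (0.046) and TCF3 (0.024), none of them called, changed sign with total-read scaling; leaving out 1 library gave -0.077 to 0.0012 for NCSTN and -0.052 to 0.0016 for PCBD1, which changed sign without RBP4 library 2 and control library 2. Total-read scaling multiplies each library by 1 factor, so it moved these genes by nearly the same log2 amount. The summed normalized values were 1.546e+07 to 1.553e+07 in RBP4 libraries and 1.622e+07 to 1.628e+07 in control libraries. The cause of the sign changes on leaving out 1 library was not tested. Depth limits the low values: SLC22A15 rests on 10 control reads.

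Libraries with the same replicate number did not deviate together (correlations of 0.0037, -0.0079 and -0.017), so no pairing by number was seen. That does not show that same-numbered libraries came from separate cultures. The replicate block gave 3791 calls higher and 4038 lower in RBP4 libraries, against 3838 and 4096.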

Other observations

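Other genes stood beside the 5 among tested genes with a mean of up to 130 normalized reads in control libraries, ranked by log2 fold change on the log2(value + 1) scale; they are descriptions of the same contrast, with no test. COL6A3, a collagen chain, ranked 1, above SLC22A15, with 30.2 ± 10.1 normalized reads in RBP4 and 0.671 ± 1.16 in control libraries. IL20RB ranked 6. NPHS1, the kidney slit protein nephrin, ranked 7, with 20.4 ± 5.26 in RBP4 and 1.76 ± 2.24 in control libraries, and TRPV6, an epithelial calcium channel, ranked 9, with 31.5 ± 2.90 in RBP4 and 3.07 ± 1.98 in control libraries. Of these, COL6A3 and NPHS1 had means under 3 normalized reads in control libraries, so the size of their change is poorly set.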
